A study of Mus musculus with 4 samples.

Results

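CXC and CX3C chemokines are small secreted or membrane-bound proteins that attract leukocytes, and 10 of their genes are described here: Cxcl1, Cxcl2, Cxcl3, Cxcl5, Cxcl9, Cxcl10, Cxcl11, Cxcl12, Cxcl16 and Cx3cl1. The genes were chosen by name. Each was read from the probe set that the platform annotation gives to that symbol alone, and each had 1 such probe set. They are 10 of 22180 named genes. The cells were cultured CT26, a colon carcinoma line of the mouse, and each of 4 cultures was read on its own Affymetrix Mouse Gene 2.0 ST array. The Senexin B array held CT26 cells kept for 24 h with Senexin B at 5 µM, and the DMSO array held CT26 cells kept for 24 h with the solvent DMSO. Senexin B blocks the kinase activity of CDK8 and its close relative CDK19, which belong to Mediator, a coactivator of RNA polymerase II. The shCDK8 array held the line CT26-shCDK8, named for a short hairpin RNA against Cdk8, and the pLKO.1 array held the line CT26-pLKO.1, named for the lentiviral hairpin vector. Whether these lines are clones or pools, and which hairpin was used, is not given in the sources used here. The labels give the lines no treatment. Each group had 1 array, so no difference has a replicate check or a p-value, and every difference below is between single arrays on the log2 scale.

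The CXC ligands fall into groups by what they bind. Cxcl1, Cxcl2, Cxcl3 and Cxcl5 act on the receptor Cxcr2 and draw neutrophils, and their transcription is classically driven by NF-kappaB. Cxcl9, Cxcl10 and Cxcl11 act on Cxcr3, draw activated T cells and NK cells, and are induced by interferons. Cxcl12 acts on Cxcr4 and Ackr3 and holds stem cells and lymphocytes in their niches. Cxcl16 and Cx3cl1 are made as membrane proteins on a mucin stalk, bind Cxcr6 and Cx3cr1, and are released by the sheddases Adam10 and Adam17.

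Promoter sequences are shown for the neutrophil-attracting and the interferon-inducible genes because these groups held the largest differences. RefSeq promoters of GRCm38.p6 were at hand for 7 of the 10 genes, all but Cxcl5, Cxcl11 and Cxcl16. Each sequence is the 250 bases before the annotated gene start, 5′ to 3′ on the gene's own strand. Capitals mark matches to the NF-kappaB consensus and, in Cxcl10 only, also to the interferon-type repeat GAAANNGAAA. Cxcl1 is at chr5:90890995-90891244, Cxcl2 at chr5:90903649-90903898 and Cxcl3 at chr5:90785851-90786100, all on the plus strand. Cxcl9 is at chr5:92328080-92328329 and Cxcl10 at chr5:92348890-92349139, both on the minus strand.
Cxcl1: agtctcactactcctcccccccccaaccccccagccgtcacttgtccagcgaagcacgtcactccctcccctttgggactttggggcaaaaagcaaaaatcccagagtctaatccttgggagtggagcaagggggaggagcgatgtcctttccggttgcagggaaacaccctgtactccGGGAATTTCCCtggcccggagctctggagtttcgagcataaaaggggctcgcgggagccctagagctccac
Cxcl2: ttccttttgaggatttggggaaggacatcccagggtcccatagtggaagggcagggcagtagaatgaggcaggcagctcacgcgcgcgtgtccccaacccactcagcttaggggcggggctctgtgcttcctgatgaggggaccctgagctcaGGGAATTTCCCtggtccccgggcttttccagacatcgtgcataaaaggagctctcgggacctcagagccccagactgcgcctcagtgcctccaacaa
Cxcl3: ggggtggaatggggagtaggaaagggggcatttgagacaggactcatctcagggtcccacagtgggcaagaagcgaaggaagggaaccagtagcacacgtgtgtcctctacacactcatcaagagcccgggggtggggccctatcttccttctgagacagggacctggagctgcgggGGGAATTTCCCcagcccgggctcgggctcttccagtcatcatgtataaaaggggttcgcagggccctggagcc
Cxcl9: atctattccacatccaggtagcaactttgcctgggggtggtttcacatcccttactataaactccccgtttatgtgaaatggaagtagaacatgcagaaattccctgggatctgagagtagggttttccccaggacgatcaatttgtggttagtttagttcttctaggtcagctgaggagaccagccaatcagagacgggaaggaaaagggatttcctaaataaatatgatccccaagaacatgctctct
Cxcl10: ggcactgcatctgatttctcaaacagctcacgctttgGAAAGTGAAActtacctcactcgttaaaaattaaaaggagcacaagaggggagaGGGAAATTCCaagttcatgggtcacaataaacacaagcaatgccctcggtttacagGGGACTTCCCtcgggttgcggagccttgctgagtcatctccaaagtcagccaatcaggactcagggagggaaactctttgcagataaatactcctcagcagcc

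The same run of letters, GGGAATTTCCC, was found in Cxcl1, Cxcl2 and Cxcl3, beginning 71, 97 and 73 bases before the gene start. It holds an NF-kappaB match on each strand, and these overlap. Cxcl10 held 2 separate NF-kappaB matches, GGGAAATTCC at 159 and GGGACTTCCC at 103 bases before the start, and the repeat GAAAGTGAAA at 213 bases. In windows of 300 bases, 250 before the start and 50 after it, searched on both strands, 4 of 7 chemokine promoters held the NF-kappaB consensus and 4.51% of all 32851 promoters did. Of these 4, Cxcl1, Cxcl2 and Cxcl3 are near relatives that share the same letters, so they are not independent cases. The repeat GAAANNGAAA was in 1 of 7 and in 3.44% of all. TATAAA was in 3 of 7 and in 13.6% of all. A match describes letters and not binding.

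**Figure D1:**
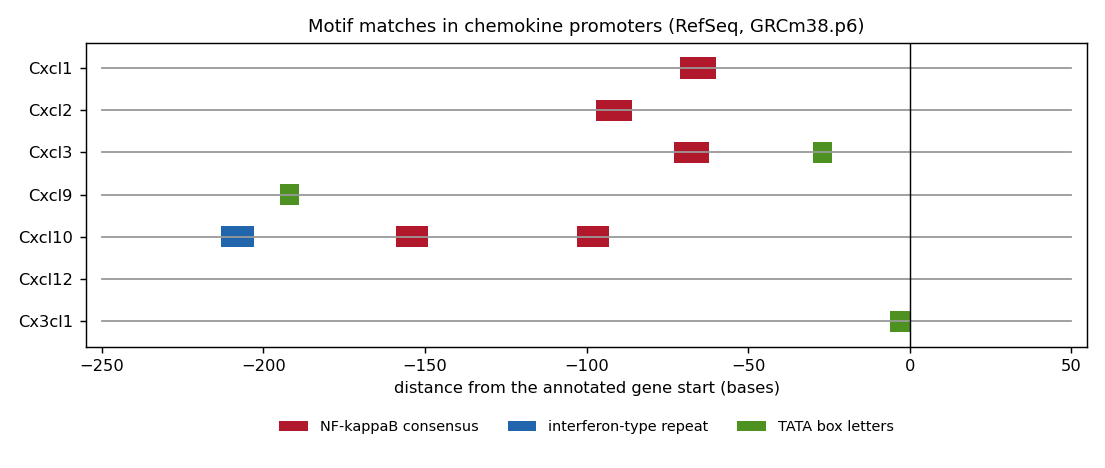
Motif matches in the 7 chemokine promoters at hand, by distance in bases from the annotated gene start. Red blocks are NF-kappaB consensus matches, blue the repeat GAAANNGAAA and green TATAAA. The matches of Cxcl1, Cxcl2 and Cxcl3 lie 71, 97 and 73 bases before the start, and only Cxcl10 carries the blue block.

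The hairpin was checked first. Cdk8 stood at 10.58 on the Senexin B array, 10.69 on DMSO, 9.07 on shCDK8 and 10.79 on pLKO.1, and the shCDK8 level was 3.31-fold below that of pLKO.1. Array medians lay between 5.99 and 6.04. A gene counted as expressed if any array put it at 5.98 or more, which is the 40th percentile over named genes and arrays. This held for 14272 genes and for 8 of the 10 chemokines. Cxcl3 and Cxcl9 lay under that limit on all 4 arrays, Cxcl2 on the pLKO.1 array alone, and Cxcl12 touched it on pLKO.1 only. Values of different genes come from different probes and are not ranked against each other.

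No expressed chemokine was 2-fold apart in either comparison of the study. Past 2-fold with Senexin B against DMSO were 0.687% of expressed genes upward and 0.252% downward. In shCDK8 against pLKO.1 the shares were 0.196% higher and 0.322% lower. At 1.5-fold, 0 of 8 were apart with Senexin B, where 2.35% of expressed genes were higher and 1.65% lower. In shCDK8 Cxcl2 was at least 1.5-fold higher and Cxcl10 at least 1.5-fold lower, where 1.67% and 1.85% of expressed genes were. The median difference of the 8 was 0.12 with Senexin B, beside -0.028 over all expressed genes, and 0.043 in shCDK8, beside 0.0038. Neither sign was stable: the Senexin B median was -0.046 over all 10 genes and -0.037 with the limit at the 60th percentile, and the shCDK8 median was -0.17 against DMSO. The Senexin B median was 0.36 against pLKO.1.

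**Figure D2:**
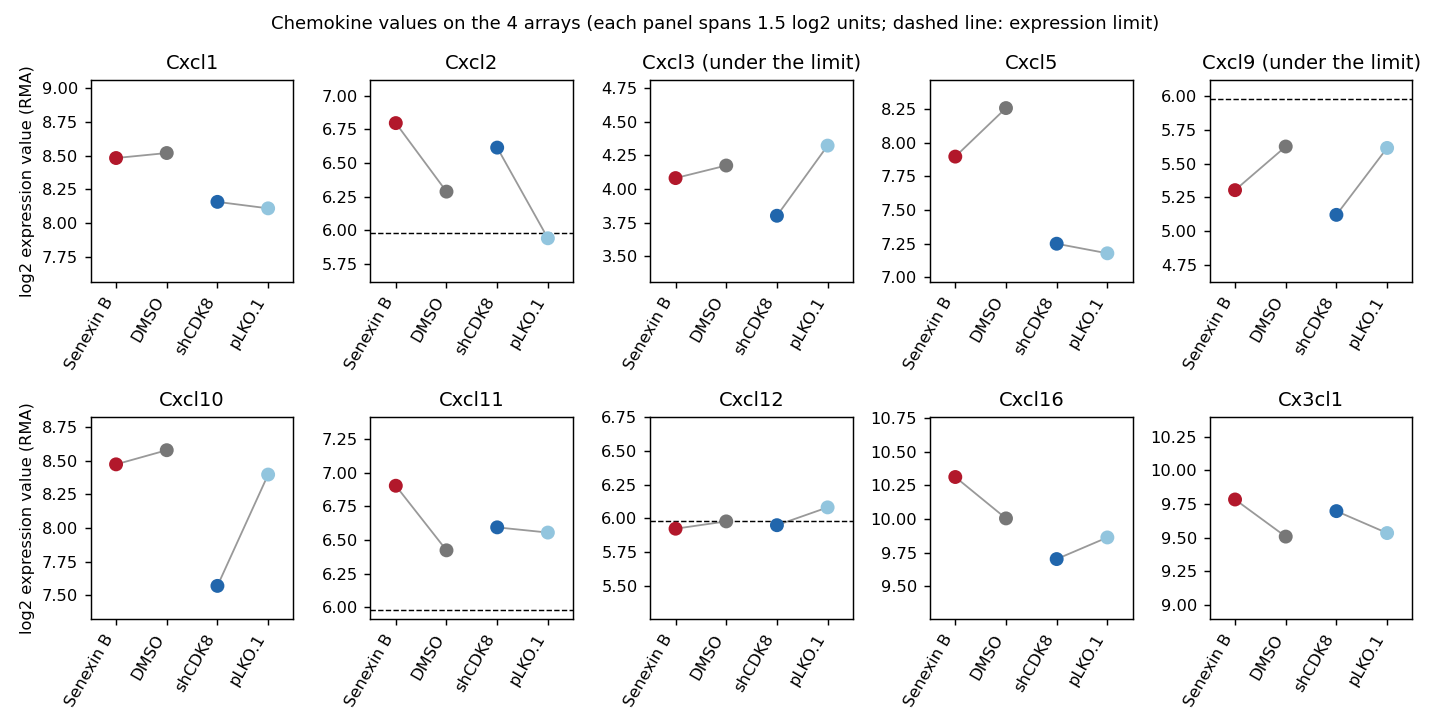
The log2 expression value of each chemokine on the 4 arrays, 1 point per array, with grey lines joining each comparison and a dashed line at the expression limit of 5.98. Every panel spans 1.5 log2 units. Cxcl1 and Cxcl5 separate the Senexin B and DMSO arrays from the shCDK8 and pLKO.1 arrays, while Cxcl10 is low on shCDK8 alone.

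Among the neutrophil-attracting ligands Cxcl2, also known as MIP-2, was higher in both comparisons. It stood at 6.80 on the Senexin B array and 6.29 on DMSO, and at 6.61 on shCDK8 and 5.94 on pLKO.1. The Senexin B and shCDK8 arrays were both higher than either control array. The difference was 0.51 with Senexin B, or 1.42-fold, and 0.67 in shCDK8, or 1.60-fold. Of expressed genes 5.75% were at least as far apart with Senexin B, in either direction, and 2.33% in shCDK8. Against the other control array Cxcl2 was 0.86 higher with Senexin B and 0.33 higher in shCDK8, and pLKO.1 minus DMSO was -0.35. All 4 values lay within 1 log2 unit of the expression limit, where RMA compresses differences.

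Cxcl1, the mouse gene also called KC, showed no such difference although it lies next to Cxcl2. Its values were 8.48 on Senexin B, 8.52 on DMSO, 8.16 on shCDK8 and 8.11 on pLKO.1. The differences were -0.037 with Senexin B and 0.048 in shCDK8. The arrays of the hairpin and vector lines lay below the other arrays: pLKO.1 minus DMSO was -0.41, and 4.30% of expressed genes were at least that far apart between these controls. Against the other control array Cxcl1 was 0.37 higher with Senexin B and at -0.36 in shCDK8.

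Cxcl5, also called LIX in the mouse, had the widest range of the 10 genes. It stood at 7.90 on Senexin B, 8.26 on DMSO, 7.25 on shCDK8 and 7.18 on pLKO.1. The arrays of the vector and hairpin lines were both lower than the arrays of the cells given compound or solvent. The difference was -0.36 with Senexin B and 0.071 in shCDK8, but -1.08 for pLKO.1 minus DMSO, or 2.11-fold lower. That was the lowest of all 14272 expressed genes between the controls, where 0.0841% of expressed genes were at least 2-fold higher in pLKO.1 and 0.014%, 2 in number, at least 2-fold lower. The other of these was 9030624G23Rik at -1.08. The sign of the Senexin B difference in Cxcl5 therefore depends on the control, at 0.72 higher when the Senexin B array is set against pLKO.1. The controls differ by vector and by solvent, and these and other unlike handling of the cultures cannot be told apart.

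Cxcl3, close in sequence to Cxcl1 and Cxcl2, lay under the limit throughout, at 4.08 on Senexin B, 4.18 on DMSO, 3.80 on shCDK8 and 4.32 on pLKO.1. Its difference of -0.52 in shCDK8 became 0 with values raised to the limit. Cross-hybridisation among these near relatives was not tested. In the RefSeq order on chromosome 5 the cluster runs Cxcl5, Ppbp, Pf4, Cxcl3, Cxcl15, Cxcl1 and Cxcl2, followed by Mthfd2l. Ppbp, Pf4 and Cxcl15 were under the expression limit on every array, so the expressed genes stood at the ends of the cluster, Cxcl5 at one and Cxcl1 and Cxcl2 at the other.

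**Figure D3:**
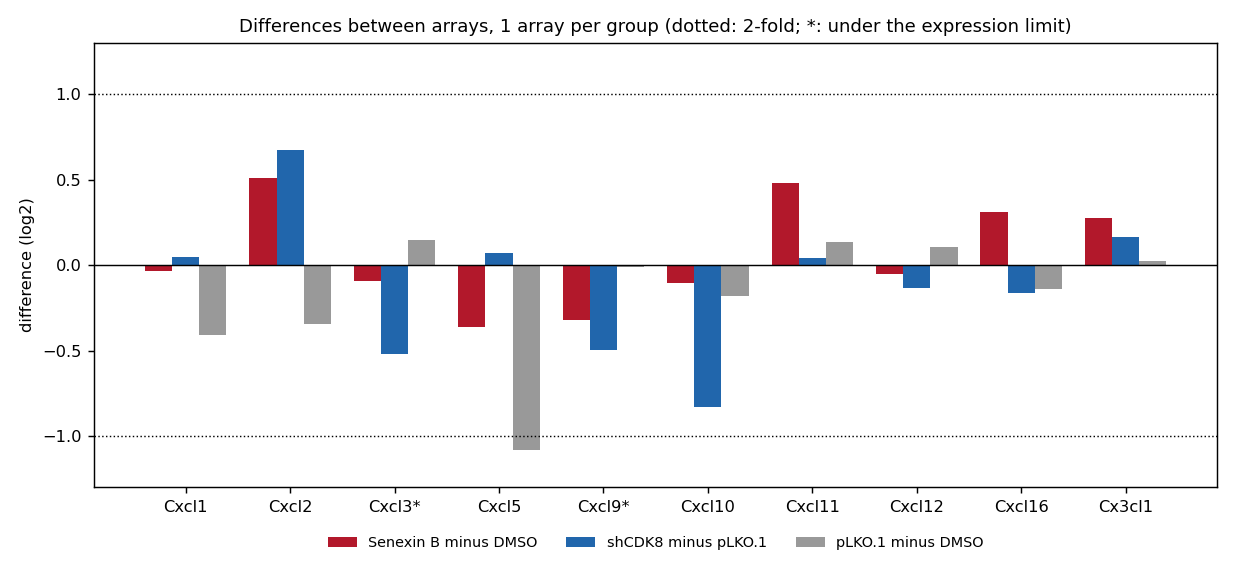
Differences on the log2 scale for the 10 chemokines, 1 bar per comparison, with dotted lines at 2-fold and an asterisk for genes under the expression limit. Red bars are Senexin B minus DMSO, blue bars shCDK8 minus pLKO.1 and grey bars pLKO.1 minus DMSO. The single bar past a dotted line is Cxcl5 between the controls, at -1.08.

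Of the interferon-inducible ligands Cxcl10, also called IP-10, was lower in the hairpin line. Its values were 8.47 on Senexin B, 8.58 on DMSO, 7.57 on shCDK8 and 8.40 on pLKO.1. The shCDK8 array stood alone below the other arrays, which lay close together. The difference was -0.83 against pLKO.1, or 1.77-fold lower, and -1.01 against DMSO, or 2.01-fold lower. Of expressed genes 1.17% were at least as far from pLKO.1 in either direction. Against DMSO 0 of 8 chemokines were 2-fold higher in shCDK8 and 2 were 2-fold lower, Cxcl5 and Cxcl10, beside 0.266% and 0.329% of expressed genes. With Senexin B the difference was -0.11, a size reached or passed by 64.5% of expressed genes. In a bulk culture fewer cells making a transcript and less of it per cell cannot be told apart.

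Cxcl11, or I-TAC, did not follow Cxcl10. It stood at 6.90 on Senexin B, 6.42 on DMSO, 6.59 on shCDK8 and 6.56 on pLKO.1. The Senexin B array was the highest, by 0.48 over DMSO and 0.35 over pLKO.1, and the shCDK8 difference was 0.039. Of expressed genes 6.86% were at least as far apart as Cxcl11 between Senexin B and DMSO. Cxcl9, also called MIG, was under the limit at 5.30 on Senexin B, 5.63 on DMSO, 5.12 on shCDK8 and 5.62 on pLKO.1. The Senexin B and shCDK8 arrays were lower than their controls, at -0.32 and -0.50, and both differences became 0 with values raised to the limit.

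Cxcl12 hardly varied, at 5.92 on Senexin B, 5.98 on DMSO, 5.95 on shCDK8 and 6.08 on pLKO.1. These values lay at the expression limit, and the differences were -0.054 and -0.13.

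The membrane-anchored ligands were both well over the limit. Cxcl16 stood at 10.31 on Senexin B, 10.004 on DMSO, 9.70 on shCDK8 and 9.86 on pLKO.1. The Senexin B array was the highest and the shCDK8 array the lowest, with differences of 0.31 and -0.16. Cx3cl1, or fractalkine, stood at 9.78 on Senexin B, 9.51 on DMSO, 9.70 on shCDK8 and 9.53 on pLKO.1. It was higher in both comparisons, by 0.28 and 0.16, while its controls were 0.026 apart. Of expressed genes 25.2% were at least as far apart with Senexin B and 44.8% in shCDK8, so these differences are of ordinary size. Of 5 listed sheddase and chemokine-processing genes 4 were expressed. With Senexin B 1 was at least 2-fold higher, Mmp2 (2.08), a gelatinase that can trim chemokines, beside 0.687% of expressed genes. The DMSO value of Mmp2, 5.97, lay just under the limit, and against pLKO.1 Mmp2 was 1.71 higher. In shCDK8 1 was at least 2-fold lower, the gelatinase gene Mmp9 (-1.06), beside 0.322%. Mmp2 was at -0.26 in shCDK8 and Mmp9 at -0.59 with Senexin B. The sheddase Adam10 differed by 0.028 with Senexin B and 0.22 in shCDK8, and Adam17 by -0.15 and 0.0025. The list medians were -0.062 and -0.13.

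**Figure D4:**
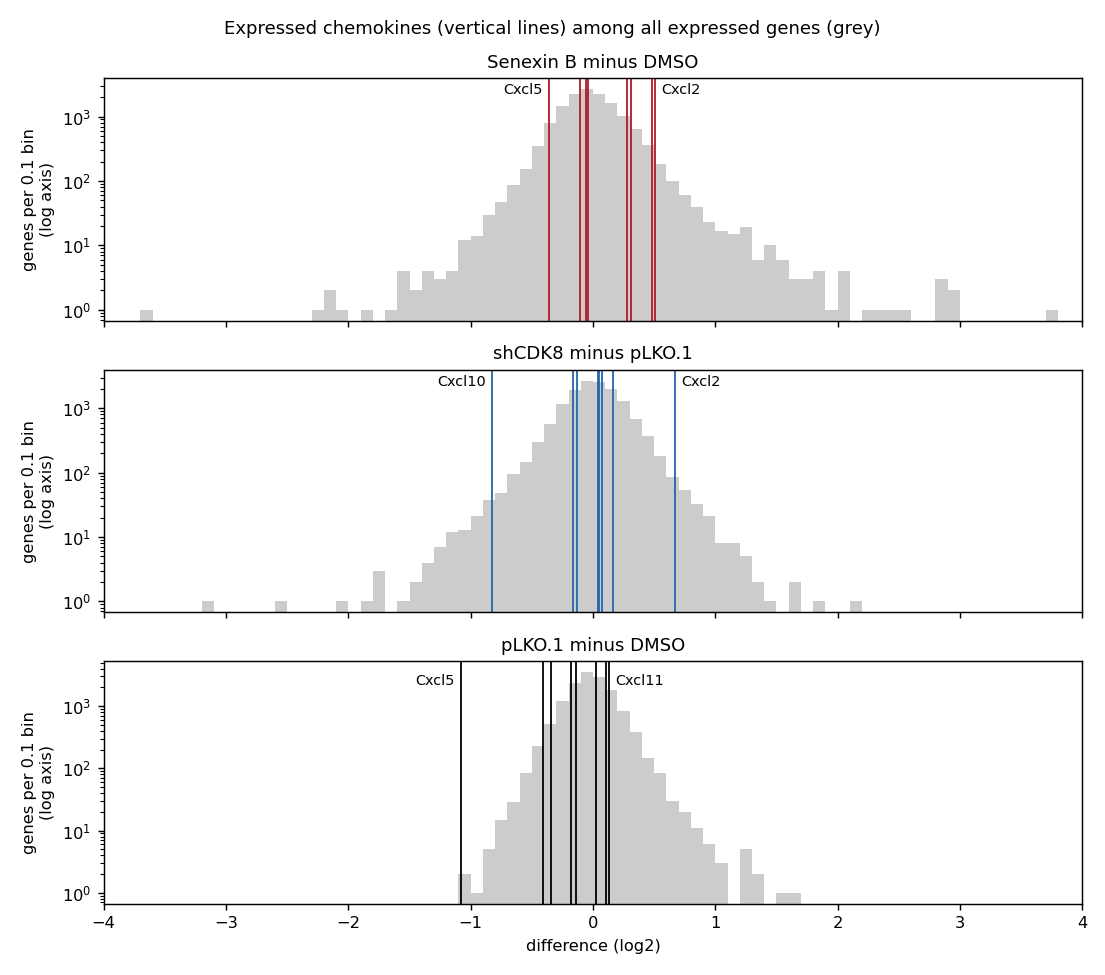
Distribution of the log2 difference over 14272 expressed genes, in bins of 0.1 with a log count axis, and the 8 expressed chemokines as vertical lines. The lowest and highest chemokine are named in each panel. In the middle panel Cxcl10 and Cxcl2 lie toward the tails, where 1.17% and 2.33% of expressed genes are at least as far from 0, and Cxcl5 lies at the lower edge of the panel for pLKO.1 minus DMSO.

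Little difference was seen in the other CXC ligands. Of Cxcl13, Cxcl14, Cxcl15, Cxcl17, Pf4 and Ppbp 3 were expressed, with medians of -0.057 for Senexin B and -0.047 for shCDK8. Cxcl13, the B cell attractant, was the farthest apart of these 3, at -0.24 and -0.40, with its Senexin B and shCDK8 values under the limit. Cxcl15, under the limit on every array, was at -0.52 with Senexin B. None of the 3 was 2-fold apart.

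Receptors for these ligands were read as well, since a tumour cell can respond to its own chemokines. Of 9 receptors 7 were expressed and none was 2-fold apart. Their median was 0.19 for Senexin B and -0.075 for shCDK8. Ackr3, the scavenging receptor of Cxcl11 and Cxcl12, stood at 8.21 on Senexin B, 7.42 on DMSO, 6.91 on shCDK8 and 7.43 on pLKO.1. It was thus 0.79 higher with Senexin B and at -0.52 in shCDK8, while pLKO.1 minus DMSO was 0.012. Cxcr1 was 0.49 and 0.25 higher, while Cxcr4 differed by 0.049 and -0.011. Cxcr2, the receptor of the neutrophil ligands, was at -0.12 and 0.25, and Cxcr3 at 0.19 and -0.082.

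The NF-kappaB list, which holds subunits, inhibitors and upstream receptors, had 17 of its 19 members measured, all 17 expressed and none 2-fold apart. Its median was 0.017 for Senexin B and 0.10 for shCDK8. Rel, a subunit, was at -0.85 with Senexin B, and the receptor genes Tlr2 and Tlr4 were 0.63 and 0.44 higher. In shCDK8 Tlr4 was 0.38 and Tlr2 0.33 higher, and the adaptor Myd88 was at -0.32. Rela, the main transactivating subunit, was at -0.083 and 0.018. Among cytokines often induced together with Cxcl1 8 of 13 were expressed, and Il6, Il1a, Il1b, Tnf and Csf2 were not. Their medians were -0.082 and 0.032. The CC chemokine Ccl7 was 2.84 higher with Senexin B and Ccl2 0.92 higher, larger than the 0.51 of Cxcl2, the highest of the CXC members. In shCDK8 Il33 was at -0.93, with its shCDK8 value under the limit, and Ccl2 at -0.53.

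Cxcl10 was set beside the interferon pathway genes. Irf7, a transcription factor of the interferon response, stood at 8.84 on Senexin B, 7.63 on DMSO, 7.76 on shCDK8 and 8.96 on pLKO.1. Irf7 was low on DMSO and shCDK8, whereas Cxcl10 was low on shCDK8 alone. Of 16 genes on this list 15 were measured and expressed. Of these 2 were at least 2-fold higher with Senexin B, Irf7 and Usp18 (1.60), and 1 was at least 2-fold lower in shCDK8, Irf7 (-1.20), beside 0.687% and 0.322% of expressed genes. The control arrays differed as much for Irf7, with pLKO.1 minus DMSO at 1.33. For Usp18 this control difference was 1.21, less than its 1.60 with Senexin B. Against the other control array 0 of 15 were 2-fold apart in either comparison, and Irf7 was at -0.12 with Senexin B and 0.13 in shCDK8. Usp18 was there at 0.39 and 0.47, while its shCDK8 difference against pLKO.1 was -0.74. Stat2 was at 0.88 and -0.39, Irf9 at 0.78 and -0.35, and the kinase gene Jak2 at -0.80 and -0.19. Against the other control Stat2 was at 0.51 and -0.022, Irf9 at -0.093 and 0.52, and Jak2 at -0.96 and -0.030. The list medians were 0.32 for Senexin B and -0.067 for shCDK8, and 0.24 and 0.048 against the other control. Of 9 expressed genes that usually accompany Cxcl9 to Cxcl11 under interferon-gamma none was 2-fold apart, and the medians were 0.47 and -0.13. Between the controls the median of these 9 was 0.32, with 7 above 0 for pLKO.1 minus DMSO. Against the other control the medians were 0.21 for Senexin B and 0.14 for shCDK8, so the shCDK8 sign turned. Psmb9, an immunoproteasome subunit, was 0.96 higher with Senexin B, and Igtp, a GTPase, was at 0.79 and -0.69. Against the other control Psmb9 was 0.55 higher with Senexin B, and Igtp was at 0.040 and 0.064. Irf1, which acts on these promoters, was at 0.41 and -0.21.

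**Figure D5:**
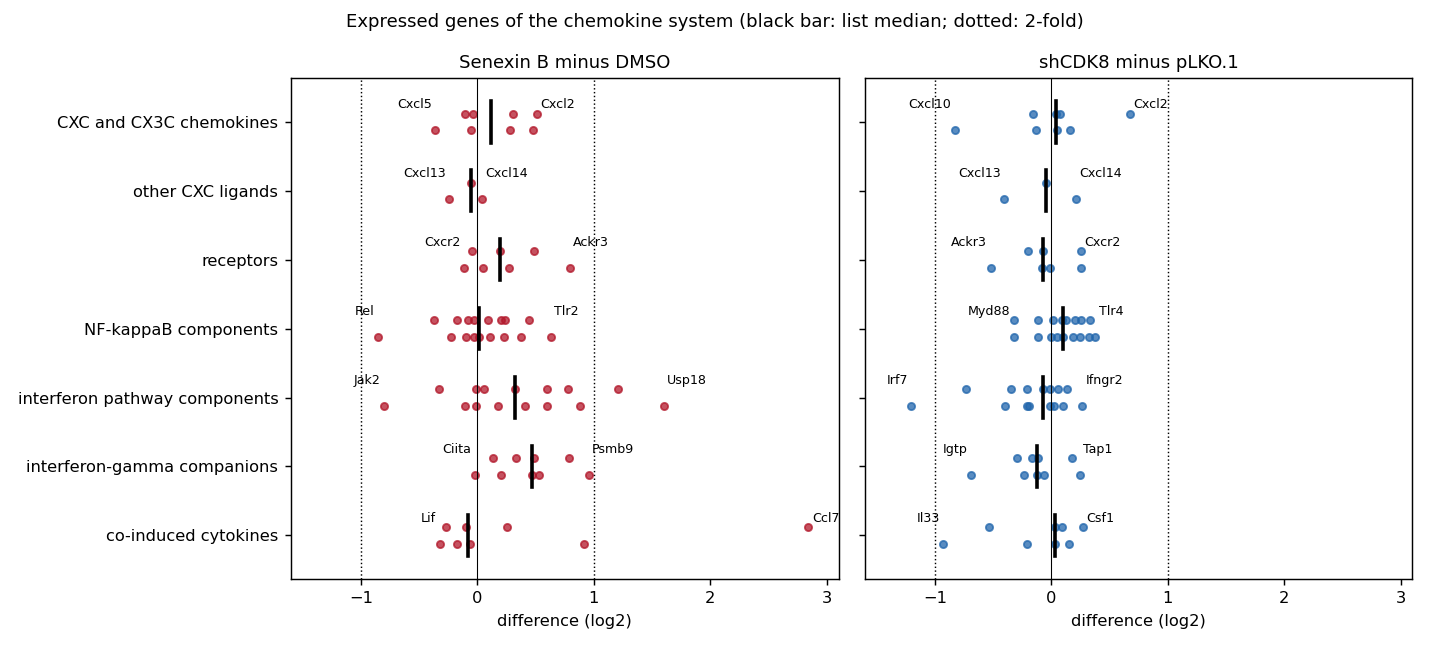
Differences on the log2 scale of the expressed genes in 7 lists of the chemokine system, Senexin B minus DMSO in the left panel and shCDK8 minus pLKO.1 in the right. Each point is a gene, the black bar is the list median and dotted lines mark 2-fold. The interferon lists have medians of 0.32 and 0.47 with Senexin B, or 0.24 and 0.21 against pLKO.1 (not plotted), and Ccl7 lies farthest out at 2.84.

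Genes with the most similar course over the 4 arrays were sought for the 2 expressed members whose values spanned at least 1 log2 unit. Likeness was the Euclidean distance of the 4 values after each gene was centred on its own mean. Nearest to Cxcl5 were Mpst at 0.25, Qrfpr at 0.26 and Cdh5 at 0.29, and these 3 were all the genes within 0.3. Cdh5 lay at or under the expression limit, at 5.99 on Senexin B, 6.15 on DMSO, 5.27 on shCDK8 and 5.47 on pLKO.1. Nearest to Cxcl10 were Sh3rf1 at 0.11, Enox2 at 0.11 and Ebp at 0.12, and 74 genes lay within 0.3. Cxcl10's course, low on shCDK8 alone, was thus more common than that of Cxcl5.

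Markers of immune, fibroblast and colon epithelial cells were read in the same arrays of CT26 cultures. Of 18 measured immune markers 6 were expressed: Elane, Mpo, Cd68, Cd4, Nkg7 and Cd79a. Elane, Mpo and Cd4 lay near the limit, with highest values of 6.13, 6.29 and 6.28, and under it on pLKO.1. Cd79a passed the limit on Senexin B alone, at 6.01. Defining genes such as S100a8, Ly6g, Adgre1, Csf1r, Cd3e and Ms4a1 lay under the limit on every array. The summed level of the 5 macrophage markers, on the log2 scale, was 9.34 on Senexin B, 9.25 on DMSO, 9.46 on shCDK8 and 9.28 on pLKO.1. Only Cd68 of these 5 was expressed, so the sum rests mainly on that gene. All 5 fibroblast markers were expressed, Fap on pLKO.1 alone. Their summed level was 12.57 on Senexin B, 11.42 on DMSO, 11.12 on shCDK8 and 11.59 on pLKO.1. The sum adds unlogged levels, so genes with high values weigh most. With Senexin B against DMSO Dcn was 2.29, Pdgfra 1.24, Col3a1 0.57 and Col1a1 0.23 higher, and Fap was at -0.46. The fibroblast sum and Cxcl10 were both lowest on shCDK8, but the sum was highest on Senexin B, where Cxcl10 was at -0.11 against DMSO. In shCDK8 against pLKO.1, 4 of the 5 fibroblast markers were below 0 and Pdgfra was 0.39 higher. Among these 4 was Fap, with its shCDK8 value under the limit. The part of these genes in the Cxcl10 difference was not tested. Of 7 colon epithelial markers 5 were expressed, and Epcam and Vil1 were under the limit. The summed level of all 7 was 9.82 on Senexin B, 9.83 on DMSO, 9.28 on shCDK8 and 9.54 on pLKO.1. In shCDK8 against pLKO.1 Krt20 was at -1.44, while 4 of the 5 expressed markers were above 0 and the median was 0.036.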

How the data were processed

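Per the submitters' processing notes, the deposited log2 values were made by the authors with RMA and Affymetrix Expression Console. Versions, settings and the array design's build were not given in the sources used here. Nor is it stated whether the 4 arrays were normalized together, which every difference between arrays assumes; their medians were close, and a repeated quantile normalization was tried. As a method RMA equalizes arrays processed together and compresses differences near background. Signal over background was not used, and precision is limited by the number of arrays, 1 in each group. Of 41345 probe sets 23521 had 1 symbol, 1814 several and 16010 none. The highest-mean probe set was kept per gene. All 10 chemokines matched RefSeq (GRCm38.p6) by gene ID. Differences of log2 values were computed with Python 3.11.15 and pandas 2.3.3, without tests, and tested on simulated data. Percentages of expressed genes at least as far apart describe these arrays. Members, lists and thresholds were chosen with earlier results of these data known. From each list, expressed genes 2-fold apart and up to 4 with the largest absolute difference per comparison could be named; other list genes, and the second gene low between the controls, were named after their values were seen. Alternatives were other filters, 2 rescalings, other probe set rules, other thresholds, a floor and the other control.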

Additional observations from a re-analysis of the deposited data

How the results depend on the processing

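No paired analysis was possible because each group had 1 array. The control array mattered most. Against DMSO, 2 chemokines, Cxcl5 (-1.01) and Cxcl10 (-1.01), were at least 2-fold apart in shCDK8, and the median was -0.17. The Senexin B median against pLKO.1 was 0.36. At 1.5-fold 2 were apart in shCDK8. The Senexin B median was -0.046 with no filter, which adds Cxcl3 and Cxcl9, and -0.037 with the filter at the 60th percentile, which leaves 5 genes. No other planned setting moved a median by 0.1 or a count of chemokines 2-fold apart. Of 120 single differences 19 moved by at least 0.1, of which 16 with the other control array and 3 with values raised to the limit. Repeated quantile normalization and lowess (span 0.3) moved 0 of 20 each. The probe set rules, with 20 values each among the 120, could move no single difference. Each chemokine had 1 probe set, so these values say nothing about robustness. Cxcl2, Cxcl3, Cxcl9, Cxcl11 and Cxcl12 lay near or under the expression limit, which limits the size of their differences.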
